A study of Mus musculus with 2 samples.

Results

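The genes described here encode the oxidation of fatty acids and the making of ketone bodies: a list of 32 genes, from the nuclear receptor gene Ppara through the carnitine shuttle, the mitochondrial and peroxisomal oxidation enzymes and their electron acceptors to Bdh1 and a few PPARα-linked genes. They were found by the gene symbol in the platform annotation, and each gene was read from its brightest probe set that carries this symbol alone. Of the 12393 genes so represented on the arrays, 31 were members, and 30 lay above the floor of 35.6 on both arrays, the level below which a signal is treated as not measured. Signals are in arbitrary units, with both arrays set to a common average, and ratios are given as log2 values or folds. Ucp2 was not analysed here, and Acot2 lay below the floor on both arrays, at 29.4 and 26.5.

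The material is liver RNA of mice without apolipoprotein E, hybridised to Affymetrix arrays. All animals shared this genotype and a high-fat diet. One array, titled orujo, stands for a diet to which the unsaponifiable fraction of olive oil was added, the minor components that are not fatty acid esters. The other, titled olive, stands for a diet with added olive oil. For age, sex, strain background, fasting state and the pooling of animals, the sources used here give nothing. With 1 array per diet there was no replicate and no test, so each ratio sets these arrays against each other and carries no error for animals.

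Fatty acids enter the mitochondrion as carnitine esters and are shortened there in a repeated cycle of dehydrogenation, hydration, a further dehydrogenation and thiolytic cleavage. Peroxisomes run a similar cycle on very long and branched chains and hand shortened chains on. In the fasting liver the acetyl-CoA formed feeds the synthesis of ketone bodies, and the nuclear receptor PPARα, which binds fatty acids, drives many of these genes.

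In these arrays the abundant enzymes of the pathway differed little, mostly towards lower signal on the unsaponifiable fraction array, while 4 members of low signal were higher there. These were Crat, Vnn1, Acot3 and Acot4, between 1.63-fold and 1.93-fold higher, and Aldh3a2 was 1.71-fold lower. The median log2 ratio, unsaponifiable fraction over olive oil, was −0.11 over the 30 measured members and −0.02 over all 6640 measured genes. Ratios were negative for 18 members and positive for 12, the latter 40.0%, against 47.5% of all measured genes. Of the 30, 4 were at least 1.5-fold higher, against 5.57% of all measured genes, and 1 was at least 1.5-fold lower, against 5.56%. At 2-fold the members gave 0 higher and 0 lower, where all measured genes gave 1.36% and 0.979%. The other 25 members had log2 ratios between −0.47 and 0.38.

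The only repeated measurement is a gene with several probe sets, which share RNA, labelling and hybridisation. Over 2057 genes with a second measured probe set, the difference in log2 ratio had an SD of 0.43, or 0.30 for a single probe set. Where the dimmer of the probe sets had a signal of 400 or more, the SD of a single probe set was 0.25 (242 genes), from 100 to 400 it was 0.29 (748 genes), and under 100 it was 0.33 (1067 genes). Of the 30 members, 17 lay within 0.30 of 0, and of all 6640 measured genes 4177 did.

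**Figure D1:**
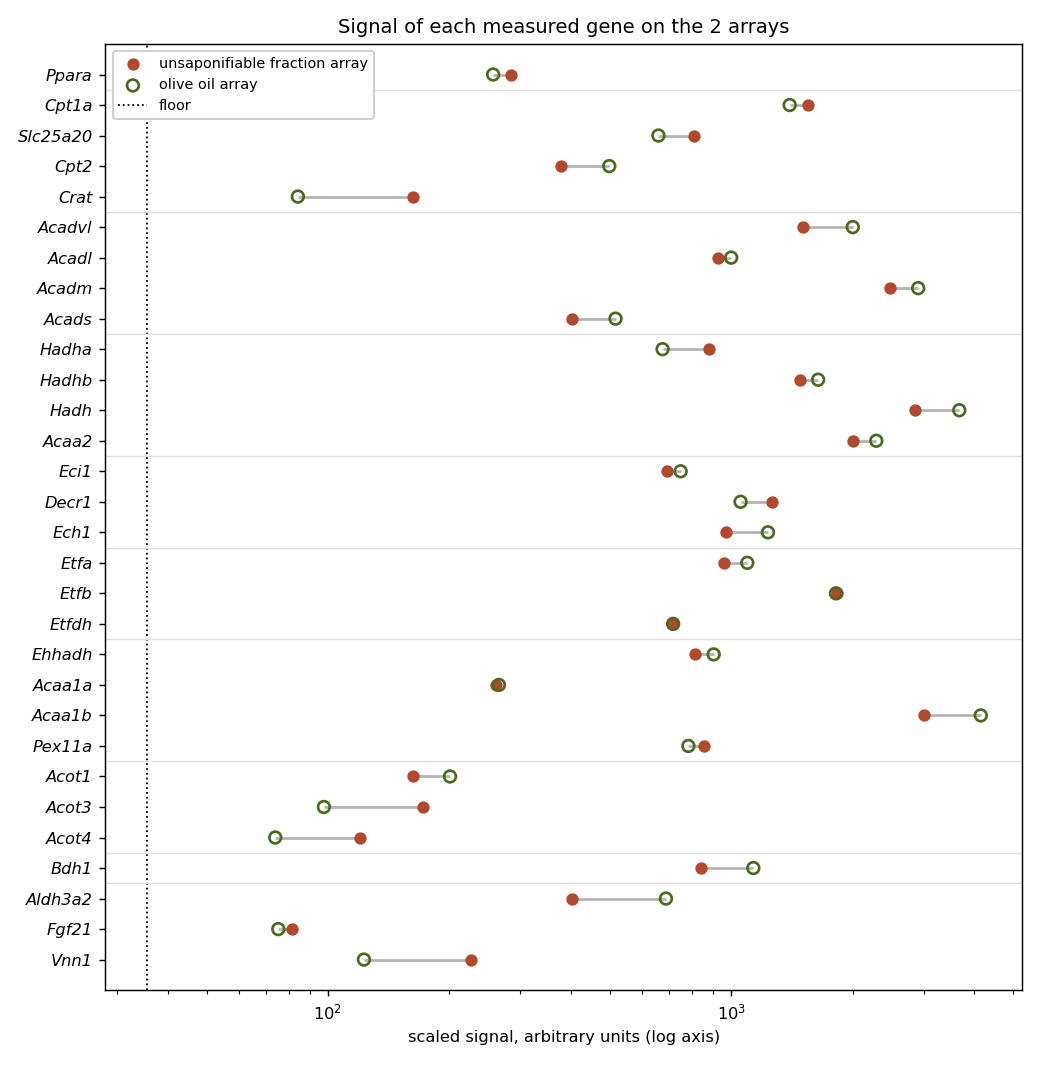
Scaled signal of each of the 30 measured members (log axis, arbitrary units), with filled points for the unsaponifiable fraction array and open points for olive oil, in order of role from Ppara to Vnn1; the dotted line is the floor of 35.6. The widest gaps are those of Crat, Vnn1, Acot3 and Acot4, with the filled point to the right, and of Aldh3a2, with the filled point to the left.

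Promoter windows, from 250 bases before to 50 after the transcription start, were read for the members in the RefSeq table (GRCm38.p6), to show regulatory sequence beside the signals. Of the 32 members 28 had a window there, and Crat, Vnn1, Decr1 and Acaa2 did not. The Acot genes lie in a cluster on chromosome 12. Acot3 and Acot4 were higher on the unsaponifiable fraction array and Acot1, their neighbour, was not. PPARα binds with its partner RXR at a direct repeat spaced by a single base, searched here on both strands as AGGTCANAGGTCA. The windows of Acot1 (chr12:84009252-84009551, plus strand), Acot3 (chr12:84051894-84052193, plus strand) and Acot4 (chr12:84038129-84038428, plus strand) follow, 5′ to 3′. Capitals mark the single motif AGGTCA, read on the other strand, in Acot3 and the stretch nearest to the direct repeat, also on the other strand and with 2 mismatches, in Acot4; Acot1 holds neither.
Acot1: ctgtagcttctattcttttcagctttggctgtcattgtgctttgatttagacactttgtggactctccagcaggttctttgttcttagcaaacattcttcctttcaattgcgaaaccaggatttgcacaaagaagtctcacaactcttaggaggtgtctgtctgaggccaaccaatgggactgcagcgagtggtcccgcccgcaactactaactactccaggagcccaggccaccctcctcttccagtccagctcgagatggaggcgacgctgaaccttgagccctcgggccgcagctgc
Acot3: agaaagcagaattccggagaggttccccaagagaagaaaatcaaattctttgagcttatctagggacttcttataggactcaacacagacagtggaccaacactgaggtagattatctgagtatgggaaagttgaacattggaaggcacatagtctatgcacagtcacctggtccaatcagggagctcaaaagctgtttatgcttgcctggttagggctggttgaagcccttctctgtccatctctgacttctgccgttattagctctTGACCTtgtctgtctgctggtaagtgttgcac
Acot4: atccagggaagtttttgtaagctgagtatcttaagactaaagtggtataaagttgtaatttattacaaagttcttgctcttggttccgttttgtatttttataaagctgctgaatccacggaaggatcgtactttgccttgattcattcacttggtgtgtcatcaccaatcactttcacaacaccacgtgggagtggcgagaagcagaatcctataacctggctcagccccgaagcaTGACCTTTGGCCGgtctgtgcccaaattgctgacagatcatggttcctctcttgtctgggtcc

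The stretch in Acot4, TGACCTTTGGCCG, began 13 bases before the transcription start. The exact direct repeat was found in 0 of the 30 member windows (28 genes) and in 0.0396% of all 32851 windows. With up to 2 mismatches it was found in 3 member windows, 10.0%, against 3.86% of all windows. The others, also with 2 mismatches, were in Slc25a20 (AGGTGAAAGGTCG) and Etfa (TTACCTTTGCCCT), whose signals differed by 1.22-fold higher and 1.14-fold lower. The single motif AGGTCA, which is part of the direct repeat, was in 20.0% of the member windows and 16.3% of all windows. These were 6 member windows of 5 genes, Acot3, Acot4, Acadm, Acadvl and Cpt1a. The signals of Acadm and Acadvl were 1.17-fold and 1.33-fold lower, and that of Cpt1a 1.11-fold higher. A link between a match and the signal was not tested. A match is a description of letters in this window only. The Acot windows resembled each other little over their length, at 47.9% to 52.0% identical aligned positions.

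Hadha and Hadhb, which encode the subunits of the mitochondrial trifunctional protein, are transcribed away from each other from starts 273 bases apart. Their windows on chromosome 5 share 228 bases, so the same sequence lies upstream of both genes. It is shown here as the Hadhb window (chr5:30155003-30155302, plus strand), with the bases shared with the Hadha window (chr5:30154931-30155230, minus strand) in capitals.
Hadhb: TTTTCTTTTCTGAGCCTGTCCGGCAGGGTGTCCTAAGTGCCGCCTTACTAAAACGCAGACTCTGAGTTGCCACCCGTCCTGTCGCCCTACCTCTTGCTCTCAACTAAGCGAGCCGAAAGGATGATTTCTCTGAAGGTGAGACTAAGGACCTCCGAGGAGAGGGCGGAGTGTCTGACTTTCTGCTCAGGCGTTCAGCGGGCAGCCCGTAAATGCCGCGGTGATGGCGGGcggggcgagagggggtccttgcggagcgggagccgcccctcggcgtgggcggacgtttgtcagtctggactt

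Ppara itself gave 284 with the unsaponifiable fraction and 257 with olive oil. Its log2 ratio of 0.15 was within the noise of a single probe set. Fgf21, a hepatic hormone induced by PPARα in fasting, gave 81.4 and 75.3, a log2 ratio of 0.11.

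In the carnitine shuttle, the entry enzyme Cpt1a, which makes acylcarnitines at the outer membrane, had signals of 1553 and 1397 (unsaponifiable fraction first, here and below), 1.11-fold higher. Slc25a20, the translocase that carries acylcarnitines across the inner membrane, gave 808 and 660.0, 1.22-fold higher. Cpt2, which returns the acyl group to coenzyme A inside, gave 378 and 498, 1.32-fold lower. The first steps were thus slightly higher and the last slightly lower, but the dimmer probe sets of Slc25a20 (−0.01 on the log2 scale) and Cpt2 (0.19) lay across 0 from the brightest.

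Crat, the acetyltransferase that exchanges short acyl groups with carnitine in mitochondria and peroxisomes, had signals of 162 and 84.2. At 1.93-fold it had the highest ratio of all measured members. Its second probe set, with signals of 41.2 and 59.4 close to the floor, pointed the other way at −0.53, so that the mean of the probe sets was 0.21. The higher signal of Crat on the unsaponifiable fraction array was therefore seen in the brighter probe set and not in the other.

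The acyl-CoA dehydrogenases carry out the first step of each cycle and differ in the chain length they take. All 4 had lower signals on the unsaponifiable fraction array. Acadvl, for very long chains, gave 1505 and 2002, 1.33-fold lower. Acadl, for long chains, gave 924.9 and 999.9, 1.08-fold lower. Acadm, for medium chains, gave 2479 and 2909, 1.17-fold lower. Acads, for short chains, gave 402 and 517, 1.29-fold lower. The differences did not follow chain length, and those of Acadl and Acadm were inside the noise of a single probe set. Acadl had a second probe set, which lay below the floor, and the other 3 genes had a single one.

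Among the later steps, Hadha, the subunit of the trifunctional protein with hydratase and dehydrogenase activity, gave 881 and 676, 1.30-fold higher. Hadhb, the thiolase subunit, gave 1481 and 1643, 1.11-fold lower, although its second probe set was higher by 0.27 on the log2 scale. The subunits that share the upstream sequence above thus had opposite signs in their brightest probe sets. Only the dimmer Hadhb probe set had the sign of Hadha, and the mean over the Hadhb probe sets was 0.06. A link between the shared sequence and the signals was not tested.

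Hadh, the dehydrogenase for short hydroxyacyl chains, gave 2864 and 3679, 1.28-fold lower, and its second probe set gave −0.34 on the log2 scale against −0.36. Acaa2, the mitochondrial thiolase, gave 2004 and 2290, 1.14-fold lower, and its other probe sets gave −0.41 and −0.16. These genes, with Bdh1, were lower in all measured probe sets.

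Further enzymes prepare unsaturated chains for the cycle. Eci1, an enoyl-CoA isomerase, gave 694 and 749, 1.08-fold lower. Decr1, the dienoyl-CoA reductase, gave 1259 and 1055, 1.19-fold higher, while its dimmer probe set had a log2 ratio of −0.13. Ech1, a dienoyl-CoA isomerase found in mitochondria and peroxisomes, gave 969 and 1234, 1.27-fold lower.

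The electron transfer genes were the flattest group. Etfb, the smaller subunit of the electron transfer flavoprotein that takes electrons from the dehydrogenases, gave 1825 and 1819. Etfdh, which passes them to ubiquinone, gave 711 and 718. Etfa, the larger subunit, gave 959 and 1096, 1.14-fold lower. The 3 log2 ratios lay between −0.19 and 0.0047.

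The peroxisomal enzymes of the cycle were not higher. Ehhadh, the bifunctional enzyme and a classical PPARα target in rodents, gave 811 and 905, 1.12-fold lower. Acaa1b, a peroxisomal thiolase, gave 3005 and 4159, 1.38-fold lower. Acaa1a, its close relative, gave 261 and 265 in the probe set that names it alone, a log2 ratio of −0.02. The brighter probe sets that name both thiolase genes, and so can be credited to neither, gave 2768 against 3518 and 1187 against 1830, with log2 ratios of −0.35 and −0.63. In these probe sets the thiolase signal was lower on the unsaponifiable fraction array.

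Pex11a, which promotes the division of peroxisomes and is induced by PPARα ligands, gave 858 and 783, 1.10-fold higher. Its second probe set gave 272 and 189, 1.44-fold higher. Both probe sets had the same sign. Only the dimmer one lay more than 0.30, the SD of a single probe set, from 0, and this SD holds no error for animals.

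The acyl-CoA thioesterases release free fatty acids from coenzyme A. Acot3, a peroxisomal enzyme for long chains, gave 172 and 97.7, 1.76-fold higher. Its probe set, like those of Hadh, Acaa2 and Acaa1a, carries a suffix for sequence found in related transcripts too. Acot4, a peroxisomal enzyme for succinyl-CoA and dicarboxylic acyl chains, gave 120 and 74.0, 1.63-fold higher, and its second probe set gave 70.4 and 56.6, 1.24-fold higher. Acot1, the cytosolic member, gave 163 and 201, 1.23-fold lower. A probe set that names both Acot1 and Acot2 gave 490 and 453, a log2 ratio of 0.11. Acot3 and Acot4 were thus higher on the unsaponifiable fraction array and Acot1 was not. Of other peroxisomal thioesterase genes, Acot6 gave 71.1 and 79.7 (−0.17 on the log2 scale), Acot8 gave 132 and 110 (0.26), and Acot5 lay below the floor on both arrays. With the floor at the 75th percentile, 101, neither Acot3 nor Acot4 was above it on both arrays.

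Bdh1 interconverts the ketone bodies acetoacetate and hydroxybutyrate in the mitochondrial membrane. Its signals were 839 and 1135, 1.35-fold lower on the unsaponifiable fraction array. The second probe set gave 48.8 and 81.9, 1.68-fold lower.

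Aldh3a2, the fatty aldehyde dehydrogenase, gave 403 and 689. It was the only measured member at least 1.5-fold lower, and the only 1 of the 21 members with signals of 400 or more on both arrays to pass 1.5-fold. Vnn1, which encodes the pantetheinase vanin that releases the coenzyme A precursor pantothenate, gave 226 and 123, 1.84-fold higher. Each had a single probe set. The 4 members at least 1.5-fold higher had signals of at most 226 and 123.

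**Figure D2:**
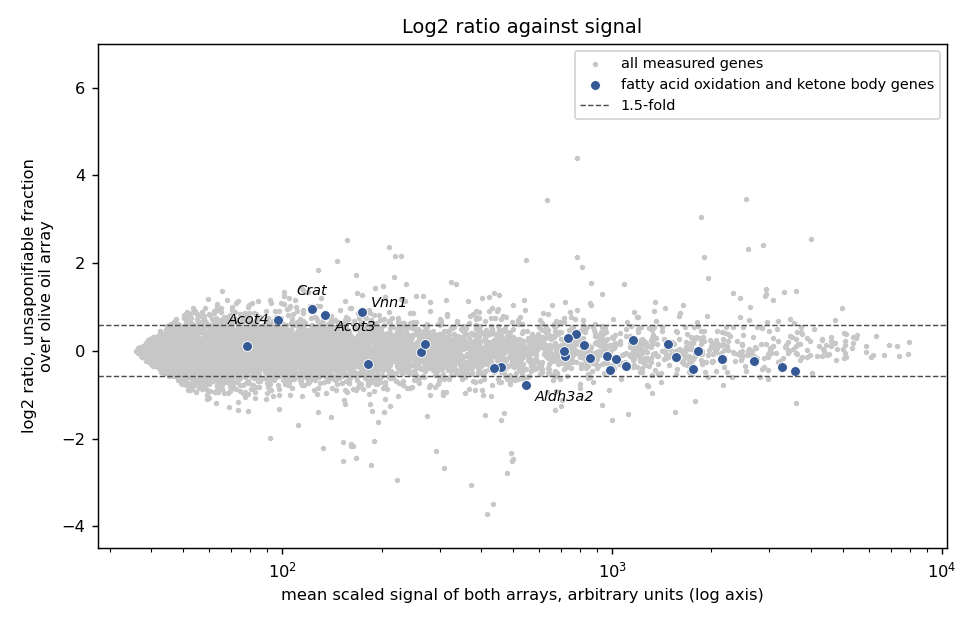
Log2 ratio of the unsaponifiable fraction over the olive oil array (vertical axis) against mean scaled signal (log axis, arbitrary units) for all 6640 measured genes (grey) and the 30 measured members (blue); dashed lines mark 1.5-fold. The 4 members above the upper line lie at low signal, Aldh3a2 lies below the lower line, and the bright members lie mostly just under 0.

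The members were also split by signal. Of the 21 members with signals of 400 or more on both arrays, 15 had negative ratios, with a median of −0.16. Of the 9 under 400 on at least 1 array, 3 had negative ratios and 4 were at least 1.5-fold higher, with a median of 0.15. With the floor at the 75th percentile, which keeps bright genes, the median of all measured genes was −0.01. Over all measured genes of any signal, 47.5% had positive ratios and 5.57% were at least 1.5-fold higher. The split at 400 was not made for all genes, so whether it is particular to the members was not tested.

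Of the members, 18 were grouped as mitochondrial, by an acyl-CoA, carnitine, electron transfer or ketone step there. A further 6 were grouped as peroxisomal and 2 as both (Crat and Ech1). The remaining 6, among them Ucp2, were put in none of these groups. The 17 measured mitochondrial members had a median log2 ratio of −0.15, with 12 negative and 5 positive ratios between −0.43 (Bdh1) and 0.38 (Hadha), and 0 passed 1.5-fold. The 6 peroxisomal members had a median of 0.05, with 3 negative and 3 positive ratios between −0.47 (Acaa1b) and 0.82 (Acot3). The difference, mitochondrial minus peroxisomal, was −0.20. The sign of the peroxisomal median depended on single members, since without Pex11a, Acot3 or Acot4 it was −0.02. The 3 oxidation enzymes Ehhadh, Acaa1a and Acaa1b alone had a median of −0.16, beside −0.13 for the 16 mitochondrial genes without Bdh1, a grouping made after the values were seen.

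**Figure D3:**
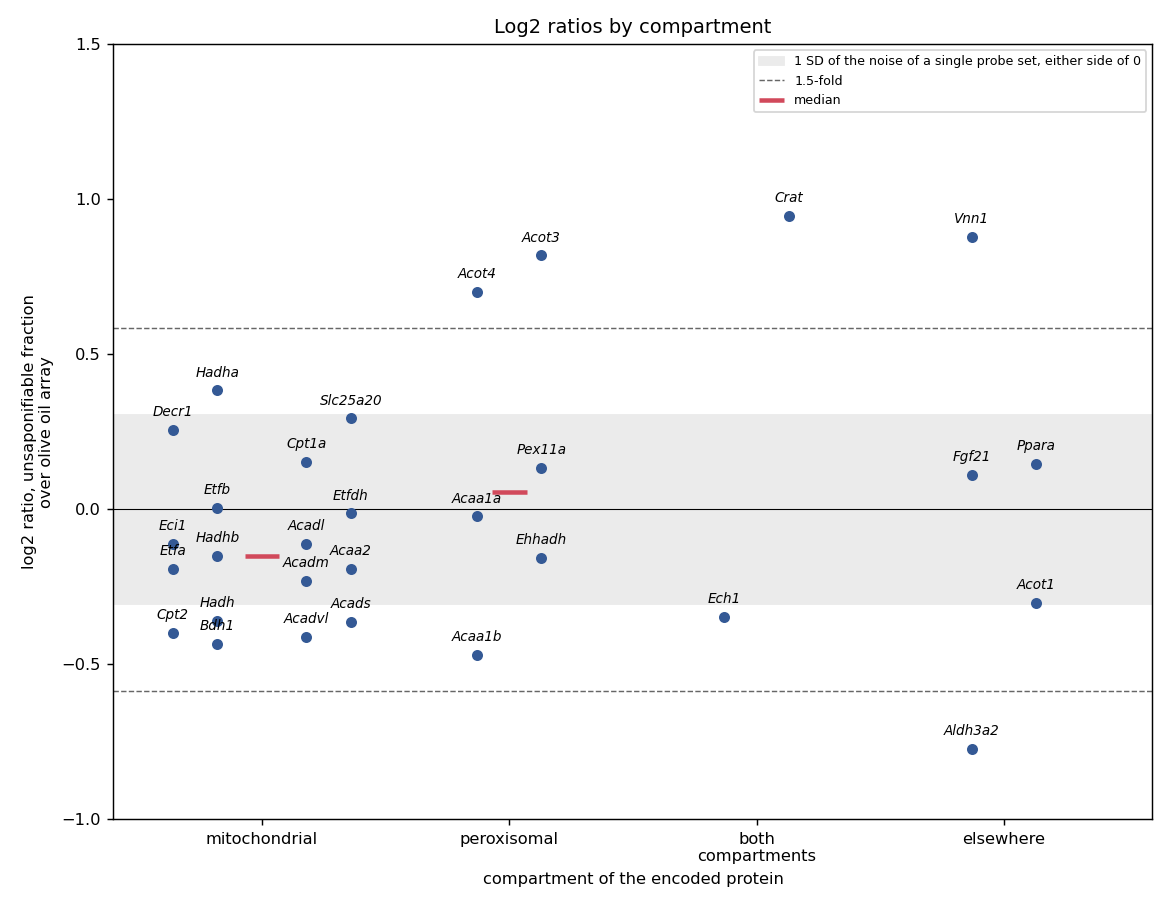
Log2 ratio of the unsaponifiable fraction over the olive oil array for each measured member, by compartment of the encoded protein; red bars are the medians of the 17 mitochondrial (−0.15) and 6 peroxisomal (0.05) members, the grey band is 0.30 either side of 0, and dashed lines mark 1.5-fold. All mitochondrial points lie between the dashed lines, and of the peroxisomal points Acot3 and Acot4 lie above them and the thiolase Acaa1b lies lowest.

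For 11 members a second probe set was measured, giving 12 comparisons. In 6 the sign was the same as in the brightest probe set and in 6 it was opposite, with a median absolute difference of 0.35. The opposite signs were those of Slc25a20, Cpt2, Crat, Hadhb, Decr1 and Acaa1a, and among them Crat alone was past 1.5-fold. The same signs were those of Hadh, Acaa2 (in both of its other probe sets), Pex11a, Acot4 and Bdh1.

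**Figure D4:**
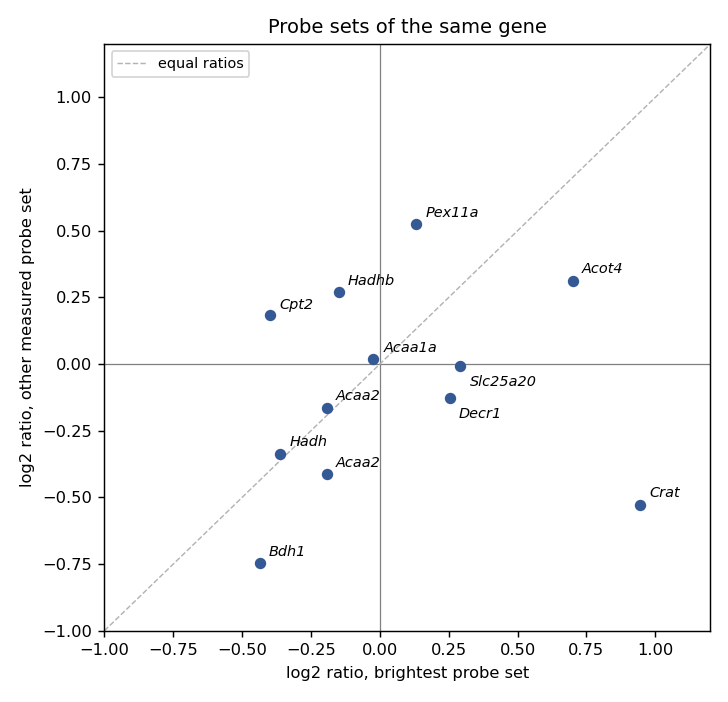
Log2 ratio of each other measured probe set of a member (vertical axis) against that of its brightest probe set (horizontal axis); the dashed line marks equal ratios. Of the 12 points, 6 lie in the quadrants of equal sign, and Crat lies farthest from the line, at 0.95 and −0.53.

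Other genes of the pathway and genes linked to it, such as regulators and other PPARα targets, were read from a wider list of 145. They were grouped by role, and 101 were measured. Their median log2 ratio was 0.03. The 1.5-fold limit was passed upwards by 9 and downwards by 6, and the 2-fold limit by 5 and 0. The shares of all measured genes were 5.57% and 5.56% at 1.5-fold, and 1.36% and 0.979% at 2-fold. The list was chosen with earlier results of these data known, so a difference from these shares is no test. Some listed genes, among them Acsl1, were not analysed here, and Cyp4a10 was named only together with another gene.

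The other mitochondrial dehydrogenases and thiolases were close to the members of the same compartment, with 12 of 16 ratios negative, a median of −0.09 and 0 past 1.5-fold. They ranged from Acot13, a mitochondrial thioesterase, at −0.39 to Acad10 at 0.24. The genes listed under peroxisomal oxidation, not all of them enzymes of the cycle, had a median of −0.07 over 22 genes, 13 of them negative. Hsd17b4, the multifunctional enzyme of the branched-chain route, gave 1233 and 1390, 1.13-fold lower. Acox2, the oxidase of bile acid precursors and branched chains, gave 681 and 1031, 1.51-fold lower. Nudt7, a peroxisomal hydrolase of coenzyme A, was highest at 711 and 374, 1.90-fold higher, while its second probe set, at 37.9 and 51.8, gave −0.45 on the log2 scale. Of 10 measured peroxins, Pex16 was highest at 506 and 269, 1.88-fold higher, and Pex26 lowest at −0.29.

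Upstream of the shuttle, Acsl4, an acyl-CoA synthetase, gave 133 and 75.2, 1.77-fold higher, and its second probe set had a log2 ratio of 0.35. Slc27a4, a fatty acid transporter, was 1.52-fold lower. The 4 measured genes of carnitine supply and malonyl-CoA control were all positive, from Bbox1 at 0.08 to Mlycd at 0.76. Mlycd, which breaks down malonyl-CoA, the inhibitor of Cpt1a, gave 269 and 159, 1.69-fold higher. Acacb, which makes malonyl-CoA at the mitochondrion, gave 69.4 and, below the floor, 29.2, and so was at least 1.95-fold higher. Genes with opposite roles in malonyl-CoA turnover thus both had higher signals there.

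For ketone bodies, 3 other genes were measured: the exporter gene Slc16a1 at 0.36, Slc16a7 at −0.08, and Aacs, which uses acetoacetate for lipid synthesis, at −0.44. Omega-oxidation genes had a median of 0.04 over 8. Cyp4a14, a strongly PPARα-inducible hydroxylase in mouse liver, gave 2294 and 2633, 1.15-fold lower, and Cyp4f15 was lowest at −0.61 and Cyp4f13 highest at 0.31.

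Among regulators, the coactivator gene Ppargc1a gave 145 and 57.1, a log2 ratio of 1.34, with 0.85 in its second probe set. Med1, which encodes a mediator subunit, was lowest at −0.60, though its second probe set gave 0.47. Among other genes that PPARα is known to regulate, Plin5, which encodes a droplet protein at mitochondrial contacts, gave 383 and 177, 2.16-fold higher. Angptl4, a lipoprotein lipase inhibitor, gave 1164 and 565, 2.06-fold higher. Pdk4, which restrains glucose oxidation, gave 96.2 and, below the floor, 20.6, and so was at least 2.70-fold higher. Retsat, a retinol saturase, was lowest at −0.64, with −0.13 in its second probe set. In this role 10 of 14 measured genes had positive ratios, with a median of 0.16, against 47.5% positive among all measured genes. The role leaves out PPARα-linked genes that are members or stand in another role. Among these, Ehhadh (−0.16) and Cyp4a14 (−0.20) were negative, and Pex11a (0.13) and Fgf21 (0.11) were positive. The 2-fold limit was passed upwards by 3 of the 14, Plin5, Angptl4 and Cyp8b1, and downwards by 0. Over all measured genes, 1.36% and 0.979% passed it. The genes of this role were listed with earlier results of these data known, so these shares describe the list and test nothing. Cyp8b1 gave 2210 and 1077. A further 2, Pdk4 and Ucp3, passed the floor with the unsaponifiable fraction alone, Ucp3 at 49.3 and 20.5. Of all 12393 genes, 394 did so with the unsaponifiable fraction alone and 584 with olive oil alone.

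**Figure D5:**
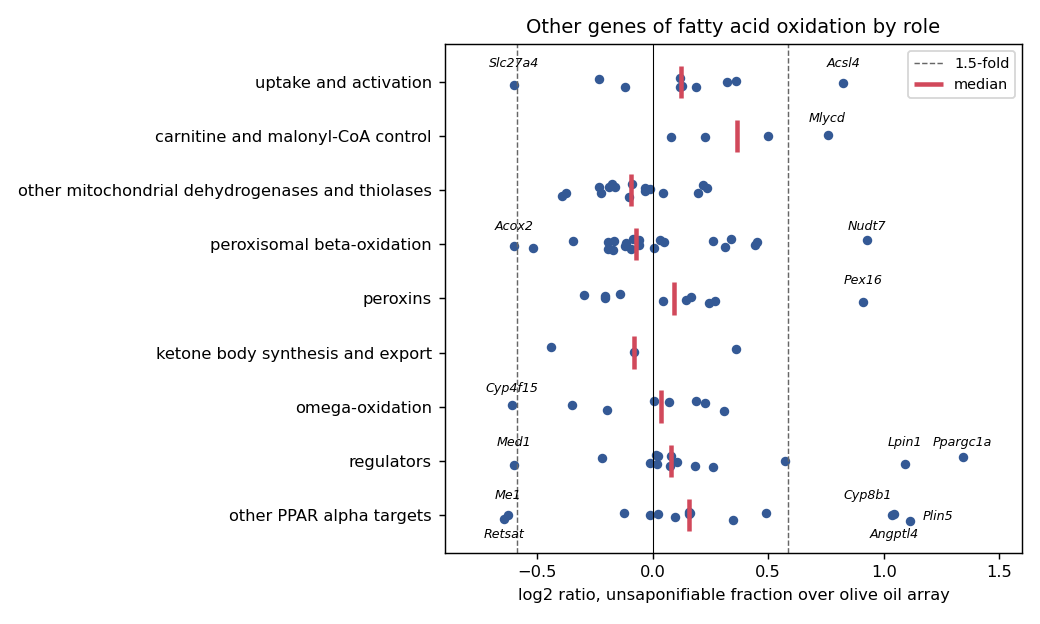
Log2 ratio of the unsaponifiable fraction over the olive oil array for the 101 measured genes of the wider list, by role. Each point is a gene, red bars are medians, and dashed lines mark 1.5-fold. Medians lie between −0.09 (other mitochondrial dehydrogenases and thiolases) and 0.36 (carnitine and malonyl-CoA control), and the named points are those past 1.5-fold.

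Several measures of the samples differed between the same arrays. Apoe gave 99.7 and 103. No file here places its probe set inside or outside the deletion, so this signal is no check of the labels. Of 15 hepatocyte markers, 11 had a probe set and all 11 were measured, with Alb at 7700 and 8095 and a median log2 ratio of 0.18. Exocrine pancreas markers summed to 632 and 5101, 8 of 10 having a probe set, of which 7 were measured and 1 passed the floor with olive oil alone. The 10 macrophage markers, all measured, summed to 4175 and 3672, with a median log2 ratio of 0.31. Muscle markers lay below the floor on both arrays, 5 of 5, as did 3 of the 4 adipocyte markers, with Adipoq at 6.8 and 2.3. Among the array's control probe sets, the log2 ratio was 2.54 at the 5′ end of 18S ribosomal RNA and 0.34 at its 3′ end, and 0.09 to 0.15 for Gapdh. The part of pancreatic RNA, RNA quality and macrophage share in the member ratios was not tested. In bulk tissue, fewer cells of a type and less RNA per cell cannot be told apart.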

How the data were processed

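Liver RNA was measured on 2 Affymetrix arrays, 1 for each diet, with targets prepared from about 8 µg of total RNA per the labels. The authors deposited 1 intensity per probe set, on a linear scale. The sources used here name no summarisation software and give no detection calls. The deposited 2% trimmed mean was 100.05 on both arrays, so differences are relative to the average signal.

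Without the 64 control probe sets, the arrays were scaled to a common 2% trimmed mean. Values under the 50th percentile of both arrays pooled (35.6) were raised to it before log2. Probe sets with 1 annotated symbol (20380 of 22626) named genes, 691 with several and 1555 with none did not, and the brightest represented its gene. The calculation (Python 3.11.15, pandas 2.3.3) was tested on simulated data. With 1 array per diet no test was possible, and genes are counted by fold. The arrays' number limits the precision.

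Named were all members, the highest and lowest measured gene of each role in the wider list, and 9 genes whatever their value. Other names were chosen after their values were seen. They are the remaining genes of a small group, those with a bound, Cyp8b1 and markers. The members and lists were chosen with earlier results of these data known. Alternatives were 4 scalings, 2 floors, log2(value + floor) and 2 probe set rules.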

Additional observations from a re-analysis of the deposited data

How the results depend on the processing

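Over the main setting and 9 alternatives (values as deposited, median centring, quantile normalization, loess, a floor at the 25th or the 75th percentile, adding the floor before log2 in place of applying it, averaging probe sets, and leaving out those of shared sequence), the member median stayed between −0.16 and −0.06 and the mitochondrial median between −0.21 and −0.11. The peroxisomal median ranged from −0.09 to 0.16, so its sign depended on the processing, and the mitochondrial minus peroxisomal difference ranged from −0.27 to −0.06. The count at least 1.5-fold higher was 4, but 1 with the floor at the 75th percentile, where 26 members were measured, 3 with the floor added before log2, 3 without probe sets of shared sequence, and 2 with the mean over probe sets, which also gave 2 at least 1.5-fold lower in place of 1. Past 2-fold, 0 members were found in either direction under each of these. Of 30 members, 28 kept the sign of their log2 ratio in the settings that measured them. Hadhb (−0.21 to 0.06) and Etfb (−0.09 to 0.02) did not. Acot3 was measured in 8 of the 10 settings, and Crat, Acaa1a, Acot4 and Fgf21 in 9. Most settings changed only the scale or floor of the same probe set, which can hardly turn a sign. Slc25a20, Cpt2, Crat, Decr1 and Acaa1a kept theirs although a second probe set had the opposite sign. In alternatives chosen after seeing the data, the peroxisomal oxidation enzymes alone had a median of −0.16 and a mitochondrial minus peroxisomal difference of 0.0073. Reading Acaa1a and Acot2 from probe sets that also name a relative gave a peroxisomal median of −0.01 and a difference of −0.12. Counting only members whose probe sets share a sign gave 3 at least 1.5-fold higher and 1 lower. No paired analysis was possible because each diet has 1 array. No replicate could be left out for the same reason, and signals near the floor limit Acot4, Fgf21 and the dimmer Crat and Bdh1 probe sets.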
